A study of Rattus norvegicus with 30 samples.

Results

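Lhcgr, Nr5a1, Nr0b1, Insl3 and Prlr, 5 receptors and regulators of the Leydig cell, were followed in rat testis after a toxic dose of mono-(2-ethylhexyl) phthalate (MEHP). The members were all probe sets, other than controls, whose annotation gave 1 of these 5 symbols and no other: 9 probe sets for 5 genes, of 14218 genes with such a probe set on the array. All 9 passed the filter on low signals (a signal not under an array's 40th percentile, on at least 3 arrays), as did 21190 of 31042 probe sets. Male Fischer rats on postnatal day 28, with no transgene or deletion named, had received MEHP at 1 g/kg in corn oil or only the oil, once, by gavage. Testes were taken at 5 times, 1, 2, 3, 6 and 12 h later, from 3 treated and 3 control animals each, and every one of the 30 animals had its own array of total RNA from whole testis. Gavage was in the early afternoon for the groups of 1, 2 and 3 h and in the morning for those of 6 and 12 h. Both treatments of a time were given close together. Comparisons between times therefore cannot be told apart from a difference in clock time. MEHP is the active breakdown product of a common plasticizer. The labels give no sorting of cells, so a signal sums all cell types of the testis.

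Leydig cells lie between the seminiferous tubules and make testosterone when luteinizing hormone binds its receptor, Lhcgr, which raises cyclic AMP. Nr5a1 (steroidogenic factor 1) is the nuclear receptor that switches on most genes of the steroid pathway, and Nr0b1 (DAX-1) is a nuclear receptor without a usual DNA-binding domain that represses Nr5a1. Both are also made by Sertoli cells. Insl3 is the insulin-like peptide hormone of Leydig cells that guides testis descent, and Prlr, the prolactin receptor, signals through the kinase Jak2 and STAT proteins.

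At 12 h Lhcgr, Nr5a1 and Nr0b1 fell after MEHP, to between 0.386 and 0.615 of the corn oil level at their brightest probe sets. Of the 9 probe sets 4 passed an adjusted p of 0.05 in limma, all lower, beside 3.68% lower (8.74% in either direction) of all probe sets tested. One of these, the dimmer of Lhcgr, met the filter through corn oil arrays only (9 arrays, with 2 of MEHP), which favours a lower call; of the other 8 probe sets 3 passed. Insl3 and Prlr had lower means that did not pass. None of the 9 passed at 1, 2, 3 or 6 h, when 0%, 0.661%, 0.0425% and 0.203% of all probe sets did; without adjustment 0, 1, 2 and 2 of the 9 had a p under 0.05, beside 2.44%, 14.0%, 10.1% and 5.17% of all probe sets. All 9 differences were below 0 at 12 h, with a median of -0.91 on the log2 scale (also -0.91 over the 8) against -0.04 over all probe sets tested. Changes are differences of group means, treated minus control within a time, of log2(signal + 16). The ± is their standard error (n = 3 animals a group) unless an SD is named. It rests on a spread of each probe set that all 10 groups share. At 12 h the log2 SD at the brightest probe sets was larger in treated animals than in controls. It was 0.78 against 0.15 for Lhcgr, 0.50 against 0.06 for Nr5a1 and 0.89 against 0.25 for Nr0b1. For these 3 genes the shared spread thus understates that of the treated animals. Fewer Leydig cells and less RNA per Leydig cell cannot be told apart in RNA of a whole testis. For Nr5a1 and Nr0b1, a fall in Leydig cells cannot be told apart from one in Sertoli cells either.

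The upstream sequences of the genes that fell, with that of Insl3, are shown because 3 of these genes fell together and all are known Leydig cell genes. They come from RefSeq windows on build GRCr8, 5′ to 3′ along the gene, and stop before the first annotated base of the gene; for Insl3, whose window lies inside the annotated gene, 30 bases are shown. The regions are chr6:11415165-11415360 (+) for Lhcgr, chr3:42896110-42896296 (-) for Nr5a1, chrX:54707408-54707657 (+) for Nr0b1 and chr16:18433069-18433098 (+) for Insl3. Capitals mark AGGTCA on either strand in Lhcgr, Nr0b1 and Insl3, and CACGTG and CCAAT on either strand in Nr5a1, where 2 CCAAT copies of opposite strand overlap.
Lhcgr: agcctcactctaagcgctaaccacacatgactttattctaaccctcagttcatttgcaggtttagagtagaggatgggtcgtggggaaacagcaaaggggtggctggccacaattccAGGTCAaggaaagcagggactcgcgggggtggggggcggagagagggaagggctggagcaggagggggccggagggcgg
Nr5a1: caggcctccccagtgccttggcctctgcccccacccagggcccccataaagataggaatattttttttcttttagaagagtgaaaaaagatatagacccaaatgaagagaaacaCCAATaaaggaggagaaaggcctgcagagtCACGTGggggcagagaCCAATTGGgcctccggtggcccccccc
Nr0b1: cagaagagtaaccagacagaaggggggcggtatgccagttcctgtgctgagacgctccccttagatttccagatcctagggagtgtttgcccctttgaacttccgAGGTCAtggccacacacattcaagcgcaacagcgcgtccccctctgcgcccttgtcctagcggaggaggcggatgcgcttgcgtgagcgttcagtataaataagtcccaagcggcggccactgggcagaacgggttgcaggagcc
Insl3: agcccctgaccgTGACCTgagcctcgacct

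For this search 6 strings were listed. AAGGTCA is the core of the site that Nr5a1 binds, and AAAGGTCA, which holds it, is the longer site of NR4A nuclear receptors. TGACGTCA is the cyclic AMP element. GATA factors are known to bind AGATAA or the related letters TGATAA. STAT factors bind TTCNNNGAA. None of them was found on either strand in the 250 bases before the window's start for Lhcgr, Nr5a1, Nr0b1 or Insl3. The last of these bases lie inside the annotated gene for Lhcgr and Nr5a1, and all of them do for Insl3. Of the 2 windows of Prlr 1 held TTCNNNGAA, 176 bases before the start. Over all 33469 promoter windows, in the order just given, these strings stood in 3.99%, 1.24%, 1.59%, 10.3%, 7.97% and 7.67%. The letters in capitals were picked after the sequences had been seen. AGGTCA stands in 14.1% of all windows and the string CACGTG in 5.59%. The shorter CCAAT stands in 34.0%. A match of letters is a description of these windows and does not show binding.

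Lhcgr had 2 probe sets, 1387423_at and 1369033_at. At 12 h the brighter one gave signals of 516, 499 and 606 in corn oil animals 60, 61 and 62, and of 123, 372 and 295 in MEHP animals 57, 58 and 59. Every treated animal lay below every control, and animal 57 was the lowest of all 30. The change was -1.11 ± 0.24 (SE, n = 3 per group), 2.16-fold lower, with an adjusted p of 0.00342 in limma. The second probe set, dimmer, gave 119, 99.4 and 123 after corn oil and 38.6, 84.2 and 43.3 after MEHP. It changed by -0.91 ± 0.24 (adjusted p 0.0142 in limma), again with no overlap. As it met the filter through corn oil arrays only, this is not a second support for the fall; with no filter its adjusted p was 0.0206. The second call was lost without any one of animals 57, 59, 60 and 62 (adjusted p 0.056 to 0.113).

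At 6 h the brighter Lhcgr probe set read 360, 260 and 330 after MEHP and 508, 442 and 452 after corn oil. The groups did not overlap, as in 4.36% of all probe sets in this direction, and the difference was -0.55 ± 0.24, but the adjusted p in limma was 0.894. The second probe set overlapped there (-0.47). At 2 h the second probe set was lower in every treated animal (66.3, 85.1 and 65.0 against 133, 99.1 and 134) by -0.64 ± 0.24, with an adjusted p of 0.211 in limma, while the first overlapped (-0.20). Over all times together Lhcgr differed at its brighter probe set (F test in limma, adjusted p 0.0413), as 4.71% of all probe sets did. Its changes did not differ between times past the threshold (adjusted p 0.17).

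Nr5a1 was read by 1393286_at and 1369859_at. At 12 h the brighter probe set gave 490, 518 and 537 in controls 60, 61 and 62 and 227, 464 and 283 in treated animals 57, 58 and 59. Animal 58 lay close under the controls, and the other two treated animals were the lowest of all 30. The fall was -0.70 ± 0.17, 1.63-fold, with an adjusted p of 0.00966 in limma. Without animal 57 it was -0.49 and the call was lost (adjusted p 0.117). The dimmer probe set read 83.3, 124 and 112 after corn oil and 60.6, 107 and 76.7 after MEHP, groups that overlap, and differed by -0.34 ± 0.25 (adjusted p 0.516). The call of Nr5a1 thus rests on 1 of its 2 probe sets. At 6 h the dimmer one was lower in every treated animal (-0.54 ± 0.25, adjusted p 0.938 in limma) and the brighter one overlapped (-0.18).

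Nr0b1, read by 1369478_at, gave the member change of smallest adjusted p. Its 12 h signals were 1044, 813 and 1139 in the controls 60, 61 and 62 and 181, 640 and 435 in MEHP animals 57, 58 and 59. All 3 treated animals lay below each of the other 27 animals of the study, whose lowest was that control of 813. The change was -1.37 ± 0.23, 2.59-fold lower, with an adjusted p of 0.000209 in limma.

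At no earlier time did Nr0b1 pass. At 3 h its signals after MEHP were 1157, 1060 and 1025 against 925, 829 and 939, all higher, by 0.26 ± 0.23 (adjusted p 0.689 in limma). At 6 h they were 902, 1042 and 966 against 849, 883 and 885, again all higher, by 0.15 ± 0.23 (adjusted p 0.999). All treated animals lying higher was seen in 6.53% of all probe sets at 3 h and 7.62% at 6 h. At 2 h all 3 treated animals lay lower, 1053, 1113 and 1060 against 1218, 1136 and 1259, by -0.16. The change at 12 h minus that at 6 h was -1.52 ± 0.32 (adjusted p 0.0144 in limma), a contrast that 0.486% of all probe sets passed in this direction. Nr0b1 alone among the members showed a change that differed between the 5 times (F test, adjusted p 0.0169; 2.87% of all probe sets).

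**Figure D1:**
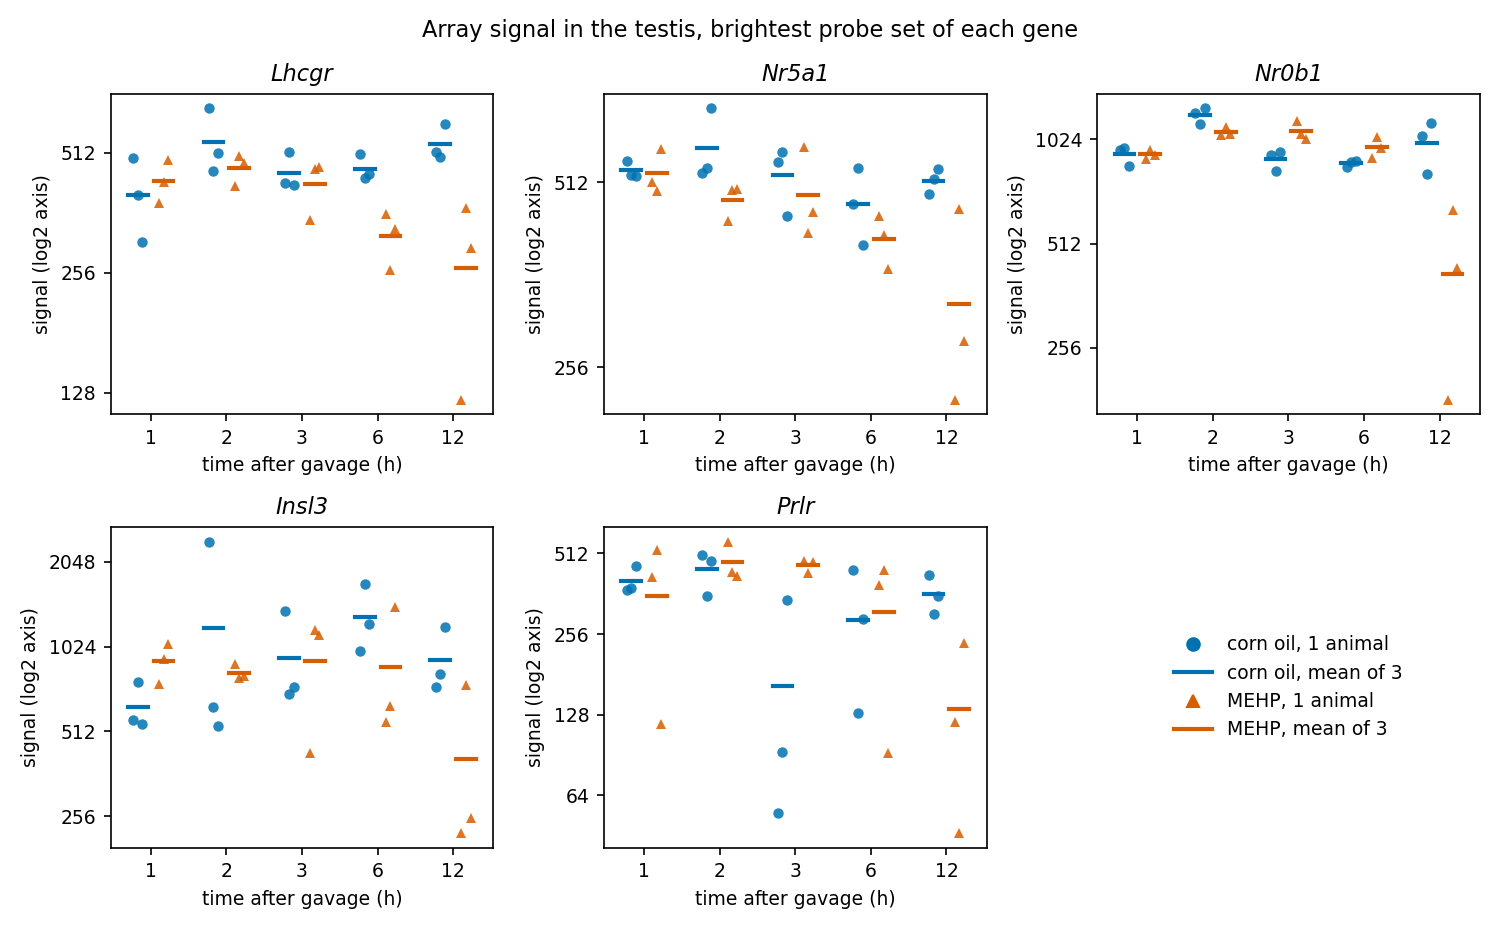
Array signal (log2 axis) of the brightest probe set of each gene by time after gavage (h), with 1 point per animal (circles corn oil, triangles MEHP) and bars at the mean of 3. At 12 h the MEHP points of Lhcgr, Nr5a1, Nr0b1 and Prlr lie under all corn oil points of that time, while Insl3 overlaps. Prlr also has low corn oil points at 3 and 6 h.

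Insl3, read by 1388241_at, varied widely among controls. At 12 h it gave 737, 819 and 1205 after corn oil and 223, 751 and 252 after MEHP. Treated animals 57 and 59 lay below all 15 controls of the study, and animal 58 lay among the controls of its time. The difference was -1.32 ± 0.48, 2.50-fold, with an adjusted p of 0.0947 in limma, and its 95% interval ran from -2.31 to -0.33. The Insl3 difference passed in 5 of 15 alternative fits in limma, with adjusted p between 2.28e-05 and 0.0143 in those. Among these, array weights gene by gene and a component shared by the arrays were added after results had been seen. The smallest p came from array weights whose fit stopped before its tolerance was reached. Insl3 also passed in limma when animal 58 was left out (-1.85, adjusted p 0.0116) or corn oil animal 7 of 2 h (adjusted p 0.0378). At 2 h the corn oil signals were 2414, 627 and 534, the first from animal 7, against 889, 790 and 804 after MEHP. That difference was -0.17 with animal 7 and 0.50 without it, and -1.20 with the mean signal of the bacterial spike probes as a covariate, none past the threshold. At 6 h Insl3 read 552, 628 and 1415 after MEHP and 987, 1702 and 1236 after corn oil, with overlap (-0.68 ± 0.48).

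Prlr had 3 probe sets, 1370384_a_at, 1370789_a_at and 1369493_at, numbered here by falling mean signal. At 12 h the first read 427, 305 and 354 after corn oil and 121, 46.2 and 238 after MEHP, with every treated animal lower (11.5% of all probe sets had every treated animal lower at 12 h, and 5 of the 9 here, or 4 of the 8 without the dimmer of Lhcgr). The difference was -1.54 ± 0.58, 2.90-fold, with an adjusted p of 0.109 in limma. Probe sets 2 (-0.54) and 3 (-0.36) overlapped between treatments, with adjusted p of 0.508 and 0.702.

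At 3 h the first Prlr probe set went the other way: 482, 432 and 477 after MEHP against 54.9, 93.0 and 343 in corn oil animals 52, 53 and 54. The treated animals lay together, and controls 52 and 53 were far below them. The difference was 1.77 ± 0.58 (adjusted p 0.477 in limma) and 1.23 ± 0.40 at the second probe set, where the groups overlapped.

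**Figure D2:**
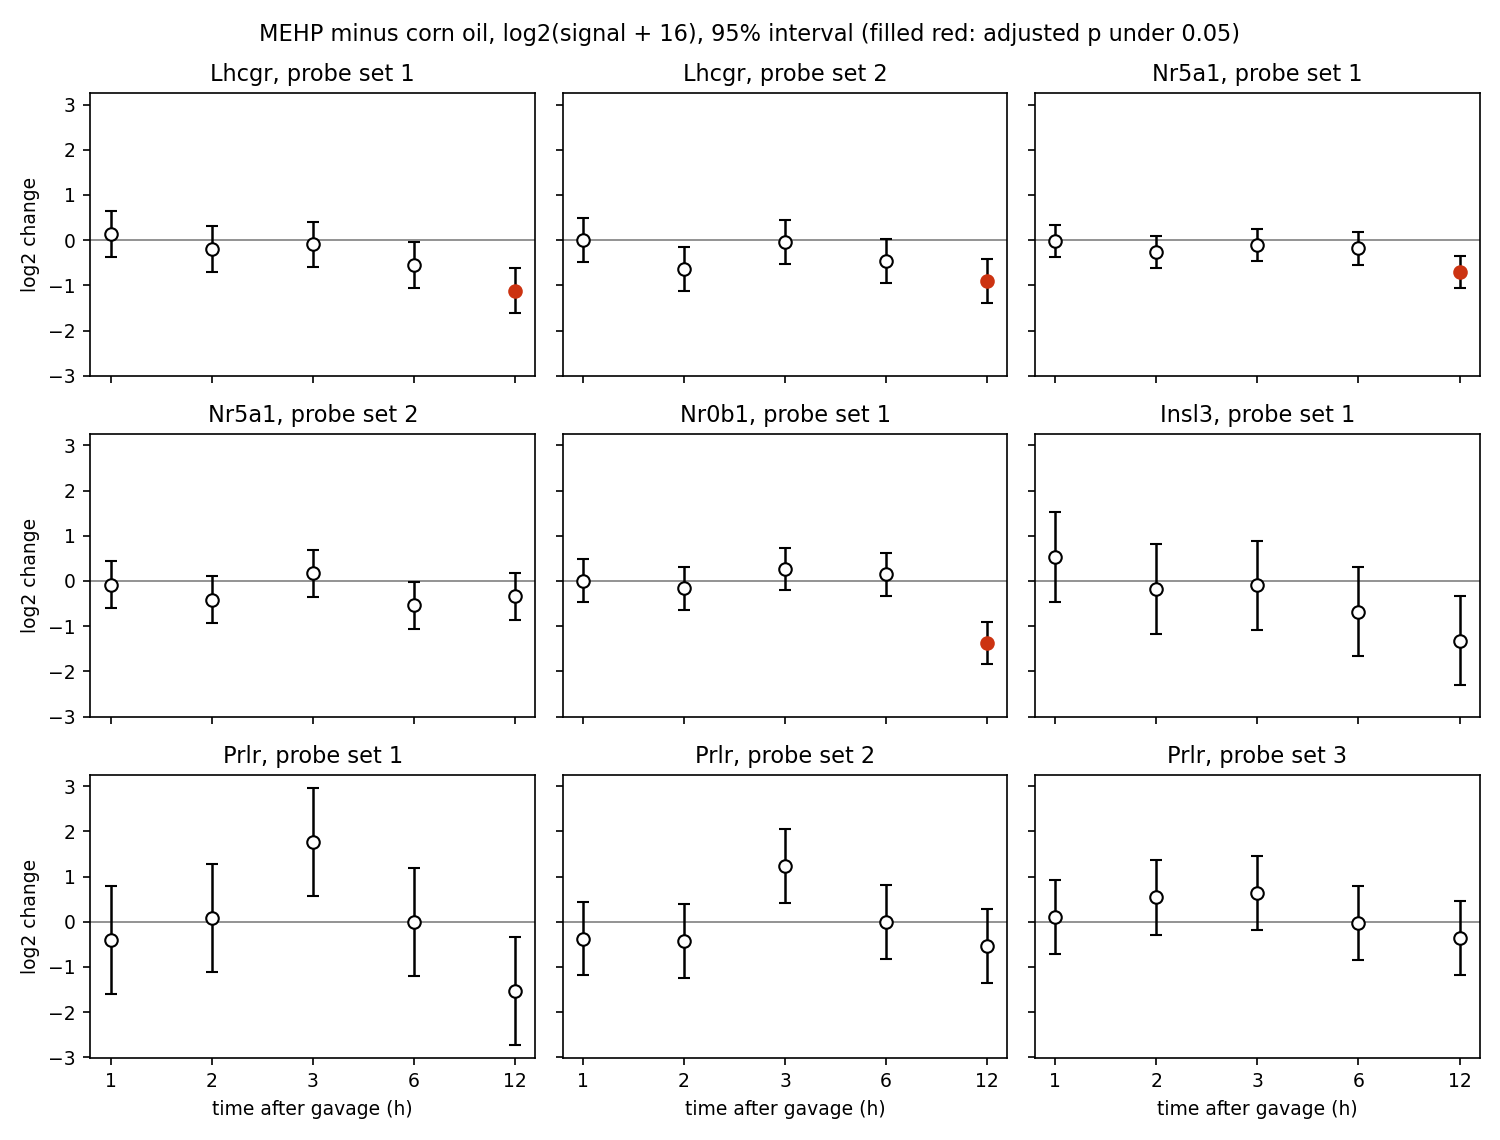
MEHP minus corn oil in log2(signal + 16) for each of the 9 probe sets (panels) by time after gavage (h), with 95% intervals from limma; filled points have an adjusted p under 0.05. Filled points stand only at 12 h, for both Lhcgr probe sets, the first of Nr5a1 and Nr0b1, and the first Prlr probe set has the widest intervals.

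Across the 30 animals 7 had a signal under 200 at the first Prlr probe set, 3 given corn oil and 4 given MEHP. They ran from 46.2 to 130, and the next animal stood at 238. The gene most like Prlr over the 30 arrays by Pearson r was Stk4 (0.953), a kinase, followed by Cirbp (0.952), a cold-inducible RNA-binding protein, and Apln (0.946), a peptide hormone. Cirbp read 33.1 to 309 in the 7 animals with low Prlr and 495 to 1946 in the other 23. Not all other probe sets of these genes followed: one of Cirbp had r = -0.66 with Prlr, one of Stk4 0.24 and one of Apln 0.34. A further probe set of Cirbp did follow (r = 0.88). Within groups 306 probe sets had r above 0.9 with Prlr.

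A first component of the deviations within groups, computed over all probe sets tested, held 39.9% of their variance. Its score was under -1 in 6 animals, all of them among the 7 with low Prlr. The exception was MEHP animal 57 at 12 h (1.27). The arrays of these 6 animals, corn oil animals 52 and 53 of 3 h among them, had the 6 lowest median signals of all arrays. Those medians ran from 117.2 to 125.2, and the next was 125.4. Within groups the r of the component was 0.83 and 0.81 for the first and second Prlr probe sets, -0.77 for Insl3, -0.53 for the first of Lhcgr, -0.38 for Nr0b1 and -0.35 for the first of Nr5a1. With this score as a covariate the Prlr difference was 0.80 at 3 h and -1.45 at 12 h (adjusted p 0.00236 in limma), and that of Insl3 at 12 h was -1.39 (adjusted p 0.00207). The score was made from the same arrays, Prlr among them, and added after the pattern was seen, so those p-values are too small. What lies behind the component was not tested.

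**Figure D3:**
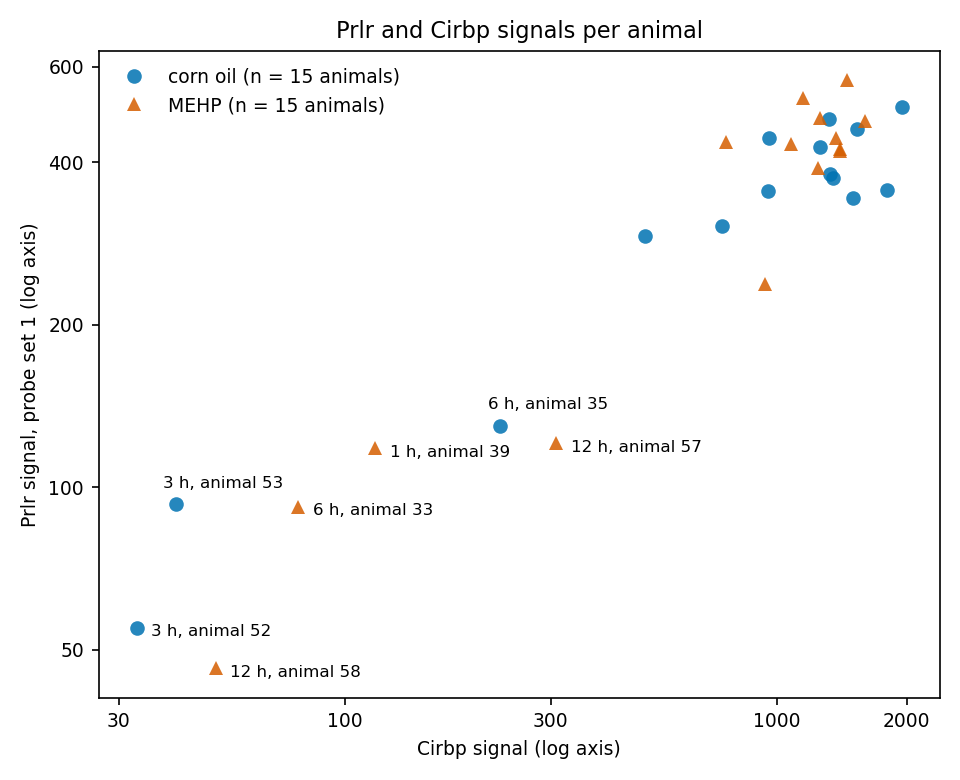
Prlr signal (first probe set) against Cirbp signal in each of the 30 animals, both on log axes, with the 7 animals under a Prlr signal of 200 labelled by time and animal number. The low group holds 3 corn oil and 4 MEHP animals, with Cirbp between 33.1 and 309.

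The 3 treated animals of 12 h differed from each other. In animal 57 Lhcgr stood at 25.1%, Nr5a1 at 45.7%, Nr0b1 at 19.6% and Insl3 at 26.1% of the control mean of that time (from log2(signal + 16)). In animal 59 these were 56.1%, 56.3%, 44.9% and 29.3%. Animal 58 kept 70.0%, 90.4%, 65.3% and 83.8%. All 4 genes thus had the same order of animals, lowest in 57 and highest in 58, while the first Prlr probe set was lowest in 58 (16.6%), then 57 (36.4%) and 59 (67.7%). The component score of these animals was 1.27 in 57, 0.34 in 59 and -1.76 in 58, highest where the 4 genes were lowest. Its part in this order was not tested.

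Ordered by group mean, MEHP at 12 h was the lowest of the 10 groups at the brightest probe set of each member. How many of all probe sets share this was not counted, so it only describes the same 12 h values again. For Nr0b1 this group (419 ± 230, SD, n = 3) did not overlap the next, corn oil at 6 h (872 ± 20.2), and all other neighbours in its order overlapped. For Lhcgr and Nr5a1 the next group was MEHP at 6 h (317 ± 50.9 and 414 ± 41.1), and all neighbours overlapped. For Insl3 the next was corn oil at 1 h (623 ± 123), and for Prlr corn oil at 3 h (164 ± 157), both overlapping it. In the corn oil animals alone no member passed for a difference across the 5 times (F test in limma, adjusted p 0.128 to 0.757), as 0.033% of all probe sets did; 3 of the 9 had an unadjusted p under 0.05, beside 20.7% of all.

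Within an animal, the difference Nr0b1 minus Nr5a1 in log2 at 12 h was 0.92 ± 0.25 (SD, n = 3) in controls and 0.25 ± 0.48 in treated animals, each of which lay lower. The exact 2-sided permutation test gave p = 0.1, the smallest that 3 against 3 allows, and 0.5 after Benjamini-Hochberg adjustment over 15 such comparisons. None of the 15 (Nr0b1 minus Nr5a1, Lhcgr minus Insl3 and Prlr minus Lhcgr at 5 times) had an adjusted p under 0.5. Lhcgr minus Insl3 differed by 0.21 at 12 h (p = 0.9, exact permutation test).

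Of 11 measured genes of the steroid chain 4 fell and 2 rose at 12 h. Cyp17a1, the enzyme that makes androgen precursors, fell by 3.37 on the log2 scale, from 5934 ± 1301 to 1010 ± 1177 (SD, n = 3). Cyp11a1, which cuts the side chain of cholesterol, changed by -1.78, Hsd3b1 by -1.32 and Scarb1, the receptor for lipoprotein cholesterol, by -1.02 (adjusted p 2.39e-05 to 0.0203 in limma). Hsd11b1, which interconverts active and inactive glucocorticoids, rose by 1.55. Star, which carries cholesterol into mitochondria, rose by 1.38 (adjusted p 0.0218) whereas at 6 h, when no member passed, it fell by 1.82 (adjusted p 0.0408). Star's other probe set did not pass at either time (0.49 and -1.62). The chain's median was 0.06 at 12 h, and 5 of 11 genes were below 0.

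None of 25 measured genes of LH receptor signalling (the Gs protein, adenylyl cyclases, protein kinase A subunits, phosphodiesterases and arrestins) passed at any time in limma, and 5 of the 25 had an unadjusted p under 0.05 at 12 h, the same share as over all probe sets (20.0%). With the probe set of highest SD taken for each gene, 1 rose at 12 h. With the main choice the median at 12 h was -0.01, 13 genes were below and 12 above 0, and the smallest p was that of Adcy9, an adenylyl cyclase (-1.33 ± 0.44, adjusted p 0.0644 in limma). Of 14 Leydig cell transcription factors 2 rose and 1 fell. Cebpb rose by 2.37 and Nr4a1, an orphan nuclear receptor induced by LH, by 2.17, to 568 ± 154 from 112 ± 31.9. Nr2f2, a nuclear receptor of Leydig precursors, fell by 1.01 (adjusted p 1.94e-05 to 0.000711 for the 3 in limma). The other probe set of Nr2f2 stood at -0.84 and did not pass (adjusted p 0.111 in limma).

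Downstream of Prlr 4 of 12 measured genes rose at 12 h and none fell. Cish rose by 2.23, Stat3 by 2.07, Socs3 by 2.04 and Jak2 by 1.51 (adjusted p 4.14e-07 to 0.000209 in limma). The other probe set of Stat3 stood at 1.27 and did not pass (adjusted p 0.158 in limma), and Socs3 met the filter through MEHP arrays only (7 arrays, with 2 of corn oil). Cish and Socs3 are feedback inhibitors of JAK kinases and respond to many cytokines, not to prolactin alone. The list's median was 0.33, with 10 of 12 above 0. Of 10 other hormone and growth factor receptors Il1r1, the interleukin-1 receptor, rose by 2.22 and Thra, a thyroid hormone receptor, fell by 0.74 (adjusted p 0.00889); its other probe set stood at -0.42 (adjusted p 0.769). The other 8 did not pass.

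**Figure D4:**
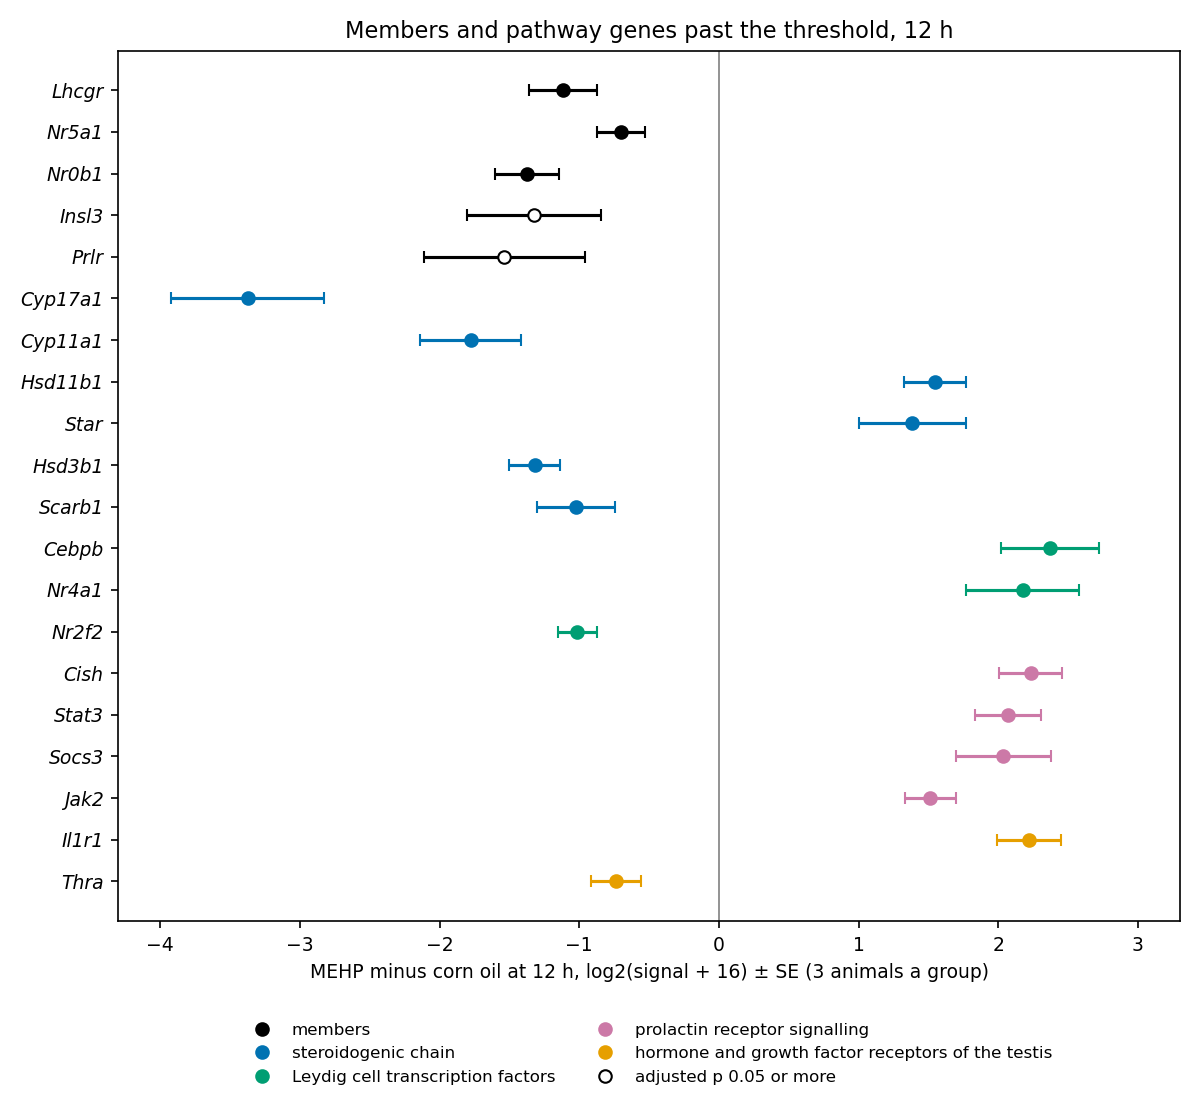
MEHP minus corn oil at 12 h in log2(signal + 16) with the standard error (3 animals a group) for the 5 members and for the pathway genes past an adjusted p of 0.05, coloured by list; open points did not pass. Lhcgr, Nr5a1 and Nr0b1 lie left of 0 with Cyp17a1, Cyp11a1, Hsd3b1 and Scarb1, and the prolactin signalling genes lie right of 0.

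At 12 h, of 11 measured Leydig cell markers other than the members, 6 fell and 2 rose, with a median of -1.02. These markers are not independent of the steroid chain above. Cyp17a1, Cyp11a1, Hsd3b1 and Scarb1, which fell, and Star and Hsd11b1, which rose, are in both lists, as is Fdx1. The others that fell were Hao2 and Ephx1. The summed signal of the markers was 9577 to 14279 after MEHP and 18035 to 23018 after corn oil. It adds raw signals, so bright genes such as Cyp17a1 weigh more in it. Of 7 peritubular myoid markers 5 rose (summed signal 7828 to 10448 against 6112 to 6488). Of 14 macrophage markers 3 rose (3700 to 6348 against 2818 to 2898), of 7 endothelial markers 1 rose, and of 13 Sertoli cell markers 1 rose and 2 fell. None of 17 measured markers of spermatogonia, spermatocytes and spermatids passed in limma, and 2 had an unadjusted p under 0.05 (20.0% of all probe sets did). No measured marker had a group mean of 0, but some were dim. Prm2 (39.9) and Adgre1 (54.1) averaged under the lowest filter level of any array (66.7). Hsd11b2 and Sall4 met the filter through corn oil arrays only, and Cd163 and Prm2 through MEHP arrays only. None of these passed at 12 h. The part of the cell types in the members' change was not tested.

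RNA integrity at 12 h averaged 9.27 ± 0.06 (SD, n = 3) in treated animals and 9.70 ± 0.17 in controls. With RNA integrity as a covariate the 4 probe sets passed again, at adjusted p between 0.000479 and 0.0166 in limma. At 2 h 5 of the 9 probe sets (4 of the 8 without the dimmer of Lhcgr) were lower in every treated animal, beside 11.6% of all probe sets. There the bacterial spike probes averaged 11.03 ± 0.17 (SD) in treated animals and 11.77 ± 0.49 in controls in log2. With them as a covariate the second Prlr probe set was at 0.06 in place of -0.42 and the third at -0.30 in place of 0.54. Other members moved both ways, such as Nr0b1 to -0.32 from -0.16 and the second of Nr5a1 to -0.19 from -0.42. No member passed with this covariate. When only the 6 arrays of 12 h were fitted, no member passed, though 6 of the 9 had an unadjusted p under 0.05, as 13.2% of all probe sets did; the adjusted p values of Lhcgr, Nr5a1 and Nr0b1 were 0.225, 0.267 and 0.188.

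By the same measure of likeness, Lhcgr was most like Eci2 (r = 0.88), Hao2 (0.87) and Tst (0.86), Nr5a1 most like Pecr (0.92), Pnkd and Gpsm1 (both 0.91), Nr0b1 most like LOC102550394 (0.98), Nrep and Arxes1 (both 0.96), and Insl3 most like Hao2 (0.90), Ces1d (0.89) and Ass1 (0.88). The values opposite to Nr0b1 were led by Cpe (-0.94) and Rtn4 (-0.93). These are descriptions over 30 arrays that share the 10 groups, so a common change at 12 h alone brings genes together. Of the 11 genes named as like Lhcgr, Nr5a1, Nr0b1 or Insl3, 10 fell at 12 h, and Ces1d stood at -1.27 (adjusted p 0.408 in limma).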

How the data were processed

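Total RNA of whole testis was labelled with biotin and hybridised to 1-colour Affymetrix Rat230_2 arrays, 1 per animal. As deposited by the authors, each probe set has 1 linear intensity. The submitters' processing notes name GCOS 1.0. How probes were summarised and which target arrays were scaled to is not given in the sources used here. From the values, the mean of each array after trimming 2% at each end was 500.13 to 500.16, and median signals ran from 117.2 to 165.4, so precision is limited by 3 arrays a group. Groups came from the titles. Of 31099 probe sets 57 controls were left out, 20826 had 1 symbol, 436 several and 9780 none, by the platform annotation.

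Signals were used as log2(signal + 16), which understates folds of dim genes. limma 3.58.1 (R 4.3.3) fitted 10 group means to all 30 arrays, with an empirical Bayes trend; the Benjamini-Hochberg adjustment ran within each contrast over the 21190 that passed the filter (threshold 0.05). For a gene in a list the probe set with the highest mean over arrays was taken. All member probe sets were named at all times; of each pathway list, up to 6 genes past the threshold per time, or else that of smallest p (given for 12 h). Genes most like a member were the 3 of highest and 2 of lowest Pearson r. The model was tested on simulated data. Alternatives covered the offset, filter, normalization, variance trend, arrays in the fit, array weights, covariates and each animal left out. The members and lists were chosen with earlier results of these data known. Promoter letters come from RefSeq (GRCr8), which held a window for all 5 genes.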

Additional observations from a re-analysis of the deposited data

Results flagged for a closer look

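The change of Nr0b1 at 12 h minus its change at 6 h was -1.52 (SE 0.32) on the log2 scale, with an adjusted p of 0.0144 in limma, and its change differed between the 5 times (F test, adjusted p 0.0169). At 6 h all 3 MEHP animals lay above the controls (0.15) and at 12 h all 3 lay below them (-1.37). Groups of 3 animals are too small for the search for single samples that stand apart.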

How the results depend on the processing

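Across 15 alternative fits and 30 fits with 1 animal left out, 2199 of 2252 values kept their direction and their side of the threshold, and no value past it changed sign. A sign change between values that both missed it counted only if over 1 standard error. Small changes in a count of calls, such as 3 in place of 4 for prolactin signalling, counted as kept. Leaving out an animal of another time cannot change a difference, only its p-value. The total is therefore not a measure of robustness. When only the 6 arrays of a time were fitted, 0 member probe sets passed at 12 h, with the same differences for Lhcgr (-1.11), Nr5a1 (-0.70) and Nr0b1 (-1.37) at adjusted p of 0.188 to 0.267 in limma; 6 of the 9 had an unadjusted p under 0.05. Insl3 at 12 h passed with array weights (-1.64, adjusted p 2.28e-05), array weights gene by gene (-1.39, 0.0143), gavage volume (-1.22, 0.0103), the array median (-1.44, 0.000504) or the shared component (-1.39, 0.00207) as a covariate. Prlr passed with the array median (-1.43, 0.0338) or the shared component (-1.45, 0.00236), but array weights reduced it to -0.73 (0.139), or -1.13 (0.175) gene by gene. Array weights gave 2 member calls at 2 h (1 gene by gene) and 2 at 3 h by either method, those at 3 h both of Prlr. They also called 7798 probe sets at 2 h in place of 140. The planned weights stopped before their tolerance was reached; the gene by gene method and the shared component were added after results had been seen. Leaving out 1 animal gave -0.98 to -0.49 for Nr5a1 at 12 h (call lost without MEHP animal 57), -1.85 to -1.01 for Insl3 (passed without MEHP animal 58 or corn oil animal 7), -2.02 to -1.01 for Prlr (passed without MEHP animal 59), 2 to 5 member calls at 12 h and 0 to 1 at 3 h (1 without corn oil animal 54, Prlr 1.79 at its second probe set). Other ranges at 12 h were -1.41 to -0.67 for Lhcgr and -1.75 to -0.89 for Nr0b1, always past the threshold. Over all probe sets, calls at 12 h numbered 1852, with 254 on the arrays of that time alone and 5569 with array weights. Centring on array medians moved the median of all changes at 3 h to -0.14. With the probe set of highest SD, LH receptor signalling had 1 call at 12 h in place of 0 the other receptors 1 in place of 2, the transcription factors 2 in place of 3 (Nr2f2 lost), prolactin signalling 3 in place of 4 (Stat3 lost) and the members 2 genes in place of 3 (Nr5a1 lost). The causes were not tested. No paired analysis was possible because no number is shared between groups. One corn oil animal of 6 h has no RNA integrity number and was dropped from that fit.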
